A study of Mus musculus with 27 samples.

Results

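The step from 3 to 10 µg/kg TCDD was examined in ileal epithelium, using the 3 mice labelled with a dose of 10 µg/kg and the 3 labelled with 3 µg/kg, 6 of the 27 mice sequenced. Mice were assigned to the groups by dose label, not by a measured value. Members and lists were chosen with earlier results of these data known. All 27 mice were C57BL/6 males killed at postnatal day 56 after gavage every 4 d for 28 d, with sesame oil alone or with 1 of 8 doses of TCDD in sesame oil, 3 mice per group. Epithelium was scraped from the distal small intestine after a fast, and its RNA was sequenced. The question the step addresses is which ileal genes still respond when a dose that already acts is raised further. The study housed mice of a group together and the labels used here give no cage, so cage and dose cannot be told apart. The labels number no replicates. P-values of the main test set a difference against a spread between mice that was estimated over all 27, not over these 6 alone.

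TCDD (2,3,7,8-tetrachlorodibenzo-*p*-dioxin) is a persistent ligand of the aryl hydrocarbon receptor (AhR). AhR waits in the cytosol with chaperones, moves to the nucleus on binding a ligand, pairs with ARNT and binds DNA at a short core, GCGTG, to switch on genes such as those of the CYP1 monooxygenases. One of its targets is its own repressor, AHRR, which competes for ARNT. In the gut, AhR is known for sensing dietary and microbial ligands, and it acts in epithelium and in resident immune cells alike.

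Expression is given as CPM, read counts scaled to library size by the TMM method. The 3 libraries at 3 µg/kg held 13.2 to 15.3 M gene counts each and the 3 at 10 µg/kg held 12.9 to 14.9 M, within a range of 12.3 to 17.1 M for the 27. Unique reads outside any gene came to 45.0 to 47.6% at the lower dose and 46.9 to 49.5% at the higher. Library indexes were reused in the series, and all 6 mice carry the second use. Enterocyte and ileal markers were abundant in all 6 libraries, with the ileal bile acid binding protein *Fabp6* at 1310 to 1733 CPM, while 4 of 5 colon markers were too low to test. *Gm42418* and *Gm26917*, annotated transcripts that collect reads from ribosomal RNA, were among the most abundant. *Gm42418* overlapped, at 36900 to 56870 CPM in the lower dose and 39430 to 65030 in the higher, and *Gm26917* did not, at 21130 to 24390 and 24910 to 37060 CPM (log2 0.47, adjusted p = 0.68). Among the 6, a pair of libraries stood apart. Mouse 57, at 10 µg/kg, had the highest share of reads outside genes of all 27 (49.52%) and 17.7% of its counts on its top 10 genes, against 13.5 to 15.6% at 3 µg/kg. Elsewhere in the series mice 43 and 65 came close, with 49.47 and 49.21% outside genes. Mouse 65 had 18.31% on its top 10 genes. Mouse 52, at 3 µg/kg, had 733 counts on 8 pancreatic acinar genes, against 0 to 5 in the other 5 mice, and none of the 8 was tested. The reads come from bulk scrapings, in which fewer cells of a type and less RNA per cell cannot be told apart.

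Few genes separated the doses. Of 16741 genes tested with edgeR's quasi-likelihood test, 7 (0.0418%) passed an adjusted p of 0.05 with a change of at least 1.5-fold, all of them higher at 10 µg/kg. They were *Cyp1a1*, *Cyp1b1*, *Ahrr*, *Dgkh*, *Ildr1*, *Slc6a7* and the long noncoding RNA *2610035D17Rik*. No gene (0%) passed as lower at 10 µg/kg, although 459 lower and 631 higher genes had an unadjusted p under 0.05 (1090 in all, 6.51%). DESeq2 called 20 genes higher and 1 lower, and limma after quantile normalization 6 and 1. In 1118 genes (6.68%) all 3 mice at 10 µg/kg lay above all 3 at 3 µg/kg, and in 1044 (6.24%) all lay below. The median log2 fold change of all genes tested was 0.0048.

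**Figure D1:**
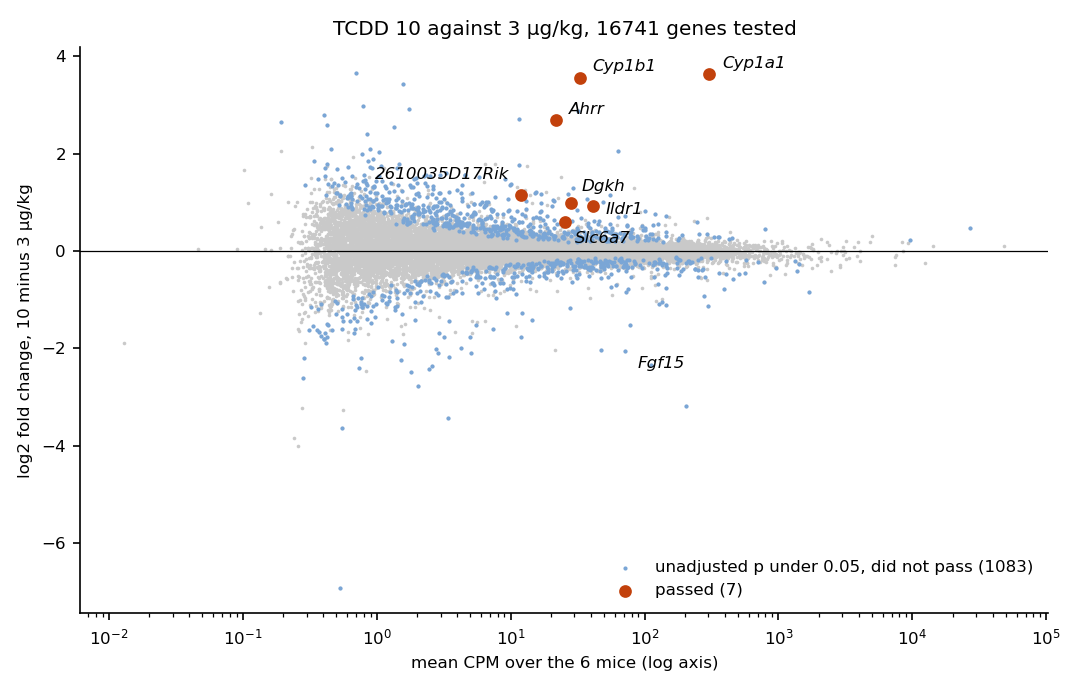
Log2 fold change (10 minus 3 µg/kg) against mean CPM over the 6 mice (log axis), 1 point per gene of 16741. The 7 genes that passed (orange) all lie above 0, and *Fgf15*, at -2.05, did not pass.

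Among the genes that passed, the AhR target enzymes and repressor had the 3 largest rises. *Cyp1a1* (ENSMUSG00000032315, GRCm38 chr9:57687928-57703824, plus strand), the monooxygenase that oxidises planar aromatic compounds, measured 14.2, 64.7 and 57.2 CPM in mice 50, 51 and 52 at 3 µg/kg, and 516, 529 and 647 CPM in mice 57, 58 and 59 at 10 µg/kg. Every mouse at 10 µg/kg lay far above every mouse at 3 µg/kg, and mouse 50 was the low one of its group. TCDD at 10 µg/kg induced *Cyp1a1* 12.4-fold over 3 µg/kg (log2 3.63, SE 0.40, adjusted p = 2.25e-05). Leaving out any 1 of the 6 mice gave log2 values from 3.22 to 3.97, and the call held each time.

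*Cyp1b1* (ENSMUSG00000024087, chr17:79701537-79715061, minus strand), a monooxygenase of steroids and polycyclic hydrocarbons, measured 2.75, 5.46 and 7.04 CPM at 3 µg/kg and 64.1, 65.1 and 53.7 CPM at 10 µg/kg. The groups did not overlap and mouse 50 was again the lowest. The rise was 11.8-fold (log2 3.56, SE 0.28, adjusted p = 3.33e-08). *Ahrr* (ENSMUSG00000021575, chr13:74211118-74292331, minus strand), the repressor that AhR induces against itself, was even within each dose, at 5.97, 5.67 and 6.01 CPM and then 43.7, 39.1 and 31.2 CPM. It rose 6.45-fold (log2 2.69, SE 0.14) with the smallest adjusted p of all genes, 2.68e-11. Per kb of exon, mean levels at 3 µg/kg were 16.3 CPM for *Cyp1a1*, 0.871 for *Cyp1b1* and 0.623 for *Ahrr*, and at 10 µg/kg they were 202, 10.4 and 4.02. For each of the 3 genes, the exact permutation test of 3 against 3 mice gave p = 0.1, the smallest it can give.

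The promoter windows of these 3 genes are shown because the AhR core can be read in each. They are RefSeq sequences on GRCm38.p6, from 250 bases before the annotated start to 50 bases from it on, at chr9:57697363-57697662 (plus strand), chr17:79715012-79715311 (minus strand) and chr13:74292282-74292581 (minus strand), written along the gene's own strand. Capitals mark GCGTG or its reverse complement CACGC.
Cyp1a1: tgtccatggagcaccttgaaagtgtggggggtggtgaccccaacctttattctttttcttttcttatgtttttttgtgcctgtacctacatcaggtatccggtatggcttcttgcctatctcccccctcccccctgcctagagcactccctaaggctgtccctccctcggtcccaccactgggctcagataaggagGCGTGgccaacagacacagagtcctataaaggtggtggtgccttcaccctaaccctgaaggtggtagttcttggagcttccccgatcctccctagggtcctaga
Cyp1b1: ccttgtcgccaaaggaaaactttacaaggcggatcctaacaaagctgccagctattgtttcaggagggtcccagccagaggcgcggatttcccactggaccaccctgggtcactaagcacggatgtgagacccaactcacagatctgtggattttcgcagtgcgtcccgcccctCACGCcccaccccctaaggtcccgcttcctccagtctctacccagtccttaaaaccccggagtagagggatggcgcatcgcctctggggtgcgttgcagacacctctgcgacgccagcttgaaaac
Ahrr: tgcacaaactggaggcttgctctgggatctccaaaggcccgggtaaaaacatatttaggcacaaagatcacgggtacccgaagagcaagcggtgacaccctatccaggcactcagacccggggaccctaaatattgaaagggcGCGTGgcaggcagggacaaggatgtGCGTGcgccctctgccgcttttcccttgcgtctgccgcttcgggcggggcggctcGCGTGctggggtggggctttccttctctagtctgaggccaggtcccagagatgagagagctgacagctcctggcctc
*Cyp1a1* held 1 match, 54 bases before its start, *Cyp1b1* held 1, as CACGC, 76 bases before, and *Ahrr* held 3, beginning 107, 82 and 27 bases before. The windows of *Dgkh*, *Ildr1* and *2610035D17Rik* held none, and *Slc6a7* has no window here. Of 32851 windows of 300 bases, 32.4% held at least 1 match and 3.91% held 3 or more. A match describes the letters only, and elements farther upstream lie outside these windows. The RefSeq start of *Cyp1a1* lies inside the longer GENCODE gene given above.

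Of the 9 listed AhR targets, 7 could be tested, and the 3 above passed. All 7 had a positive log2 fold change (51% of all genes did), and their median was 0.62. Of them, 6 lay higher without overlap between doses (6.68% of all genes did). The 4 that did not pass had smaller differences. *Tiparp*, an ADP-ribosyltransferase that restrains AhR, measured 37.0, 34.3 and 37.8 CPM at 3 µg/kg and 44.0, 68.2 and 55.1 CPM at 10 µg/kg (log2 0.62, adjusted p = 0.25). The groups did not overlap, with mouse 57 closest to the lower dose. *Tiparp* passed with no filter on low counts, though not with DESeq2. The glucuronosyltransferases *Ugt1a6a* and *Ugt1a6b* also lay apart, at log2 0.47 and 0.50, and the quinone reductase *Nqo1* overlapped at 19.3 to 21.3 and 21.1 to 23.5 CPM. *Cyp1a2* and *Aldh3a1*, with 6 and 4 counts over the 6 mice, were not tested.

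The receptor machinery itself was not called. *Ahr* measured 20.7, 17.9 and 20.7 CPM at 3 µg/kg and 20.1, 19.3 and 20.9 CPM at 10 µg/kg, which overlap, and 0 of 7 genes of the AhR complex passed, with a median log2 fold change of -2.2e-05. *Arnt2*, a relative of *Arnt*, was the one member without overlap, at 3.54, 4.34 and 5.62 CPM against 1.57, 2.05 and 3.39 CPM (log2 -0.95, adjusted p = 0.44). Among NRF2 antioxidant genes 0 of 20 passed (median -0.07), and the cell cycle list, 0 of 24, had a median of 0.0056.

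Among the other genes that passed, *Dgkh* (ENSMUSG00000034731, chr14:78558750-78732776, minus strand) encodes a diacylglycerol kinase, which turns diacylglycerol into phosphatidic acid. It measured 18.3, 19.6 and 19.1 CPM at 3 µg/kg and 39.3, 37.5 and 35.6 CPM at 10 µg/kg. The mice of each dose lay close together and the doses far apart, a 1.97-fold rise (log2 0.98, SE 0.12, adjusted p = 0.000209). *Ildr1* (ENSMUSG00000022900, chr16:36693978-36726804, plus strand), an angulin of tricellular junctions, measured 27.7, 32.5 and 24.8 CPM and then 53.9, 54.8 and 53.1 CPM. The 3 mice at 10 µg/kg were nearly equal, and the rise was 1.90-fold (log2 0.93, SE 0.15, adjusted p = 0.00625). Its call was lost when mouse 50 or mouse 52 was left out (adjusted p = 0.071 and 0.12), with log2 values of 0.92 and 0.84.

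*2610035D17Rik* (ENSMUSG00000087259), a long noncoding RNA on chromosome 11, lies outside the rule for named genes and is given because it passed. It measured 5.82, 8.18 and 8.14 CPM at 3 µg/kg and 13.7, 16.6 and 18.7 CPM at 10 µg/kg, with no overlap. The rise was 2.21-fold (log2 1.14, SE 0.19, adjusted p = 0.00744), and it did not pass without mouse 50 or mouse 59, nor in fits of the 6 mice alone or of the 11 mice of the second index use. *Slc6a7* (ENSMUSG00000052026), a sodium-dependent proline transporter best known from brain, measured 20.0, 20.2 and 20.1 CPM and then 33.2, 28.0 and 30.2 CPM. No mouse overlapped, but the change was at the limit, 1.52-fold (log2 0.60, SE 0.11, adjusted p = 0.0434). The call held in 5 of 15 alternatives. It was lost on leaving out any 1 mouse but mouse 58 (adjusted p up to 0.31), in fits of the 6 mice alone and of the 11 mice of the second index use, with limma and with other scalings.

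Across the other doses, given here as values, *Cyp1a1* was at 0 to 0.887 CPM from vehicle to 0.3 µg/kg and at 3.32 to 6.30 CPM at 1 µg/kg, and reached 1062, 1881 and 2279 CPM at 30 µg/kg. *Cyp1b1* and *Ahrr* at 3 µg/kg stood at 2.75 to 7.04 and 5.67 to 6.01 CPM against 1.11 to 2.39 and 2.27 to 2.63 CPM in vehicle mice. *Ahrr* lay above the vehicle mice without overlap at each dose, from 3.59 to 3.84 CPM at 0.01 µg/kg on. *Dgkh* lay at 10.6 to 12.7 CPM with vehicle and 50.6 to 52.4 CPM at 30 µg/kg, and *Slc6a7* at 14.8 to 15.9 and 36.6 to 42.3 CPM. *2610035D17Rik* lay at 16.2 to 17.6 CPM at 30 µg/kg, inside the range at 10 µg/kg. Against the mice at 10 µg/kg, which both comparisons share, 30 µg/kg gave a further pass for *Cyp1a1* (log2 1.63, adjusted p = 0.0473) and *Ahrr* (log2 0.97, adjusted p = 0.000871), among 57 genes in all (0.34%). *Ildr1* did not differ from vehicle by the test at 3 µg/kg (log2 0.22, adjusted p = 0.57) and did at 10 µg/kg (log2 1.15, adjusted p = 7.02e-05), comparisons that share their vehicle mice, all of the first index use, a difference that cannot be told apart from dose there, and that call 1.11% and 2.53% of genes.

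**Figure D2:**
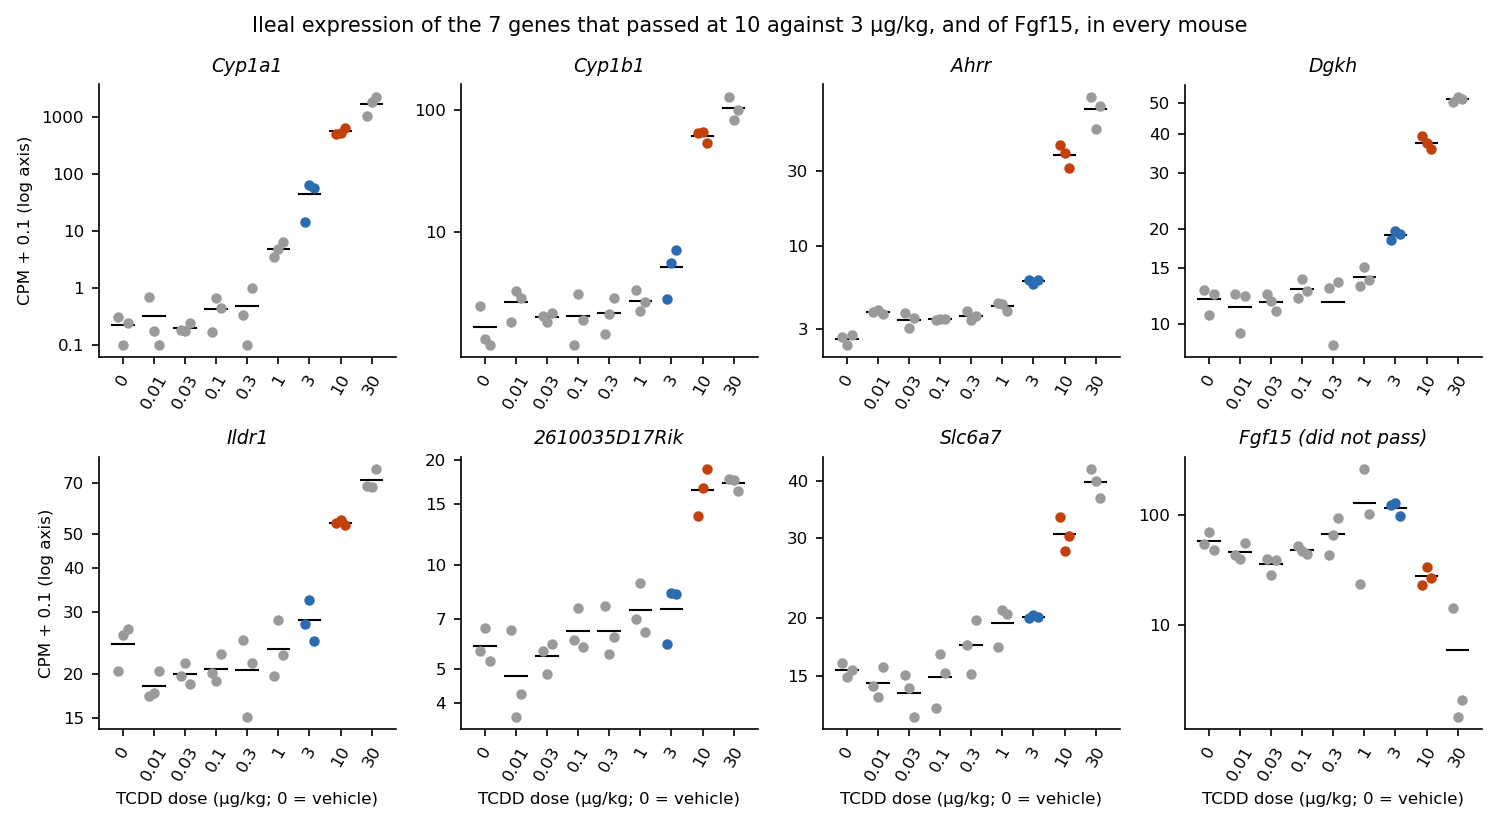
CPM plus 0.1 on a log axis in each of 27 mice for the 7 genes that passed and for *Fgf15*, by TCDD dose, with group means as bars (blue, 3 µg/kg; orange, 10 µg/kg). The 3 mice at 10 µg/kg lie above the 3 at 3 µg/kg in the 7 genes and below them for *Fgf15*.

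A further 6 mice offered a separate look at the same genes, 3 at 30 and 3 at 1 µg/kg, none of them used in the step from 3 to 10 µg/kg. All 7 genes passed there too and in the same direction, where 411 of 16741 genes passed (2.46%), 1.71% as higher and 0.741% as lower. The log2 fold changes were 8.51 for *Cyp1a1*, 5.25 for *Cyp1b1*, 4.18 for *Ahrr*, 1.89 for *Dgkh*, 1.60 for *Ildr1*, 1.23 for *2610035D17Rik* and 1.03 for *Slc6a7*. Of the 6, 1 mouse at 1 µg/kg has the first index use and the others the second, and without it all 7 genes kept their direction. These mice share the fit and its estimate of spread with the others, and *Dgkh*, *Sytl2* and *Slc6a7* were already listed as graded with dose from earlier results of these data.

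**Figure D3:**
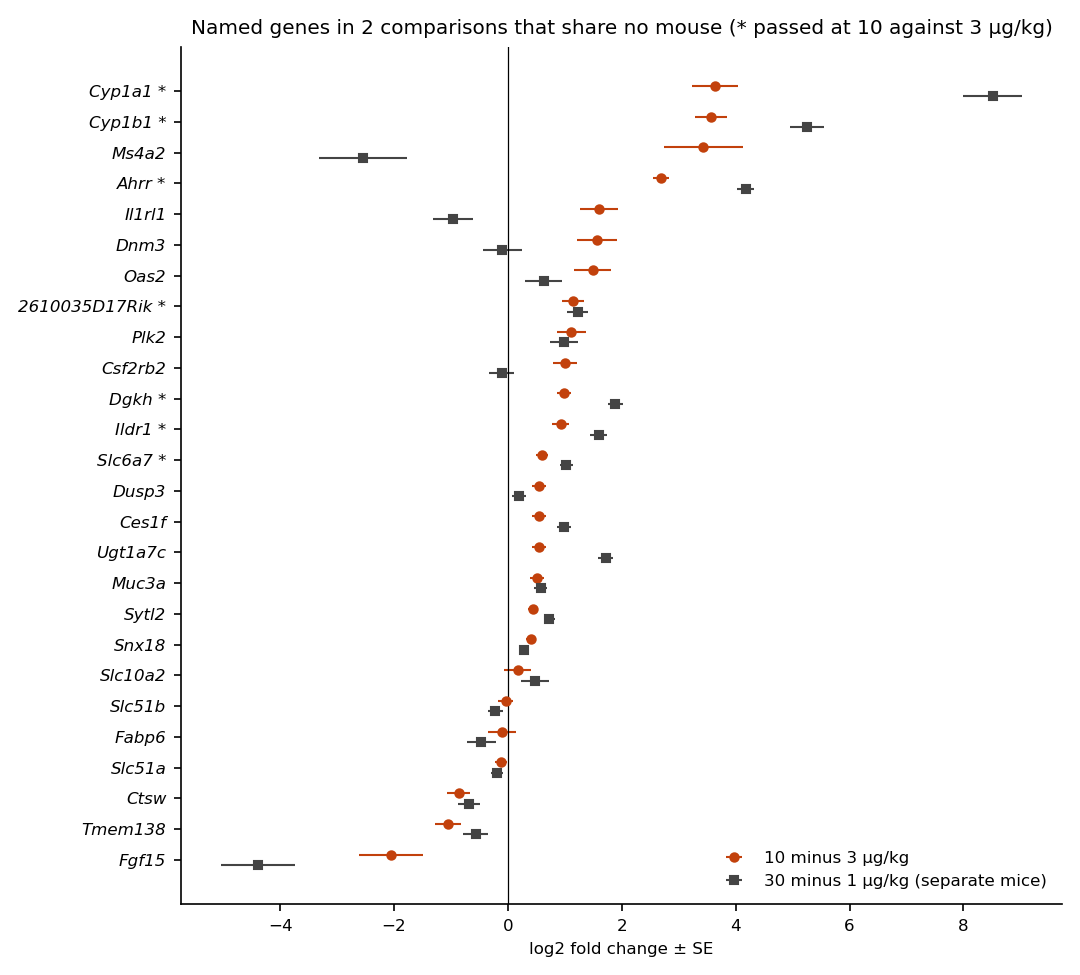
Log2 fold change ± SE of each named gene at 10 against 3 µg/kg (circles) and at 30 against 1 µg/kg in separate mice (squares). The 7 genes that passed (asterisks) are positive in both, whereas *Ms4a2* and *Il1rl1* lie at 3.43 and 1.60 in the first and at -2.55 and -0.96 in the second.

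The 14 genes with the smallest p among those that did not pass, kept to a mean of at least 1 CPM, no overlap and no predicted or immunoglobulin name, had adjusted p from 0.105 to 0.161, and 12 of them were higher at 10 µg/kg. *Ifit3b*, at a lower mean level, had an adjusted p in the same range (0.13). The 30 against 1 µg/kg comparison called 5 of the 14 in the same direction, namely *Ces1f*, *Ugt1a7c*, *Sytl2*, *Plk2* and *Ctsw*. Of all genes, 1.71% passed there as higher and 0.741% as lower. *Ces1f*, a carboxylesterase, measured 42.8 to 47.1 CPM at 3 µg/kg and 64.5 to 67.4 CPM at 10 µg/kg (log2 0.55), and *Ugt1a7c*, a glucuronosyltransferase, 49.7 to 69.0 and 84.8 to 91.0 CPM (log2 0.54). *Sytl2*, a Rab27 effector in vesicle traffic, measured 83.0 to 89.3 and 112 to 123 CPM (log2 0.44), and *Plk2*, a polo-like kinase, 3.94 to 6.09 and 6.93 to 14.9 CPM (log2 1.12). In the separate mice *Ces1f*, *Ugt1a7c*, *Sytl2*, *Plk2* and *Ctsw* stood at log2 0.99, 1.72, 0.73, 0.99 and -0.68. Of 6 tested members of the *Ugt1a* cluster, 5 lay above without overlap (6.68% of all genes did) and *Ugt1a1* overlapped (log2 -0.35). They share their last exons, and reads that matched more than 1 gene were not counted, so their levels are uncertain.

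*Snx18*, *Dusp3* and the membrane mucin *Muc3a*, chosen like the rest of the 14 for lack of overlap, were also higher, at log2 0.41, 0.55 and 0.51. Only *Tmem138*, at 2.17 to 3.38 and 1.18 to 1.32 CPM (log2 -1.05), and *Ctsw*, a protease of cytotoxic lymphocytes, at 4.72 to 4.90 and 2.35 to 3.08 CPM (log2 -0.87), were lower among the 14. *Csf2rb2*, a cytokine receptor chain, measured 3.75 to 4.56 and 6.40 to 11.0 CPM (log2 1.00), and *Dnm3*, a dynamin, 1.33 to 1.81 and 2.70 to 6.90 CPM (log2 1.56). With *Ms4a2*, *Il1rl1* and *Oas2* they complete the 14.

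Mast cell genes lay higher in each mouse at 10 µg/kg, though none passed. *Ms4a2*, the beta chain of the high affinity IgE receptor, measured 0.236, 0.210 and 0.323 CPM at 3 µg/kg and 5.17, 1.12 and 2.39 CPM in mice 57, 58 and 59 (log2 3.43, SE 0.70, adjusted p = 0.105). *Il1rl1*, the receptor for IL-33, measured 0.943, 2.098 and 1.81 CPM and then 6.98, 4.22 and 3.70 CPM (log2 1.60, adjusted p = 0.105). In vehicle mice, all of the first index use, *Il1rl1* measured 1.98 to 4.505 CPM, which overlaps the mice at 3 and at 10 µg/kg. *Ms4a2* measured 0.141 to 1.03 CPM there, below the mice at 10 µg/kg. Mouse 57, whose library stood apart above, was the highest for both, and the part of this in the result was not tested. The 5 mast cell markers of the list, which are the proteases *Mcpt1*, *Mcpt2* and *Cpa3*, the IgE receptor chain *Fcer1a* and the stem cell factor receptor *Kit*, all lay higher without overlap. Of all genes, 6.68% lay higher without overlap. None of the 5 markers passed, and their median log2 fold change was 2.71. With no filter on low counts *Mcpt1*, *Mcpt2*, *Cpa3*, *Ms4a2* and *Il1rl1* passed, and DESeq2 called *Ms4a2* and *Il1rl1*. *Mcpt1*, a protease of mucosal mast cells, measured 9.12, 5.95 and 7.75 CPM at 3 µg/kg and 104, 21.4 and 42.2 CPM at 10 µg/kg (log2 2.88, SE 0.75, adjusted p = 0.29). The summed CPM of the list lay between 45.2 and 47.3 at 3 µg/kg and between 71.4 and 200.5 at 10 µg/kg, and without mouse 57 the median was 1.96. At 1 and 30 µg/kg the sum was 60.7 to 90.3 and 46.9 to 78.8 CPM, and in that comparison 1 of the 5 was positive, with a median of -1.47.

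Tuft cell markers summed higher in each mouse at 10 µg/kg, by little in mouse 58. All 6 tested were positive with a median of 1.05, 4 without overlap (6.68% of all genes lay higher so), and none passed. *Dclk1*, the kinase used to mark tuft cells, measured 26.6, 21.3 and 24.1 CPM at 3 µg/kg and 57.3, 29.0 and 64.7 CPM at 10 µg/kg (log2 1.07, adjusted p = 0.19), and *Trpm5*, the taste transduction channel, 21.5, 20.8 and 16.4 and then 42.3, 22.2 and 52.7 CPM (log2 1.00, adjusted p = 0.34). Mouse 58 lay just above the lower dose for both. The transcription factor of the lineage, *Pou2f3*, overlapped at 1.61 to 2.91 and 1.12 to 5.40 CPM. Summed over the list the mice at 3 µg/kg held 71.4 to 86.3 CPM and those at 10 µg/kg 185, 88.4 and 214 CPM. *Dclk1*, *Trpm5* and *Avil* were among the markers that passed with no filter on low counts, and *Dclk1* and *Avil* with DESeq2. Without mouse 58, *Dclk1*, *Trpm5* and *Avil* passed, and the number of genes called over the whole table went from 7 to 18. In the 30 against 1 µg/kg mice the median was -0.07.

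Interferon-stimulated genes were positive throughout, with all 30 above 0 (51% of all genes were) and 20 higher without overlap (6.68% were). Their median was 0.55 and none passed the test. *Oas2* and *Usp18* passed with no filter on low counts, and *Oas2* with DESeq2 or without mouse 58. *Oas2*, a sensor of double-stranded RNA, measured 6.92, 3.99 and 3.55 CPM at 3 µg/kg and 12.4, 7.26 and 20.7 CPM at 10 µg/kg (log2 1.49, SE 0.32, adjusted p = 0.14). *Rsad2*, the antiviral viperin, measured 16.7, 17.6 and 16.4 CPM and then 27.7, 23.4 and 73.6 CPM (log2 1.30, adjusted p = 0.48). Mouse 59 was the highest for both. The list summed to 1120 to 1308 CPM at 3 µg/kg and to 1570, 1388 and 2079 CPM in mice 57, 58 and 59, and vehicle mice held 1172 to 1558 CPM, so that the mice at 3 µg/kg overlapped vehicle and mouse 58 lay inside the vehicle range. Without mouse 59 the median was 0.41. The same list had a median of 0.0048 in the 30 against 1 µg/kg mice, with 15 of 30 positive.

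**Figure D4:**
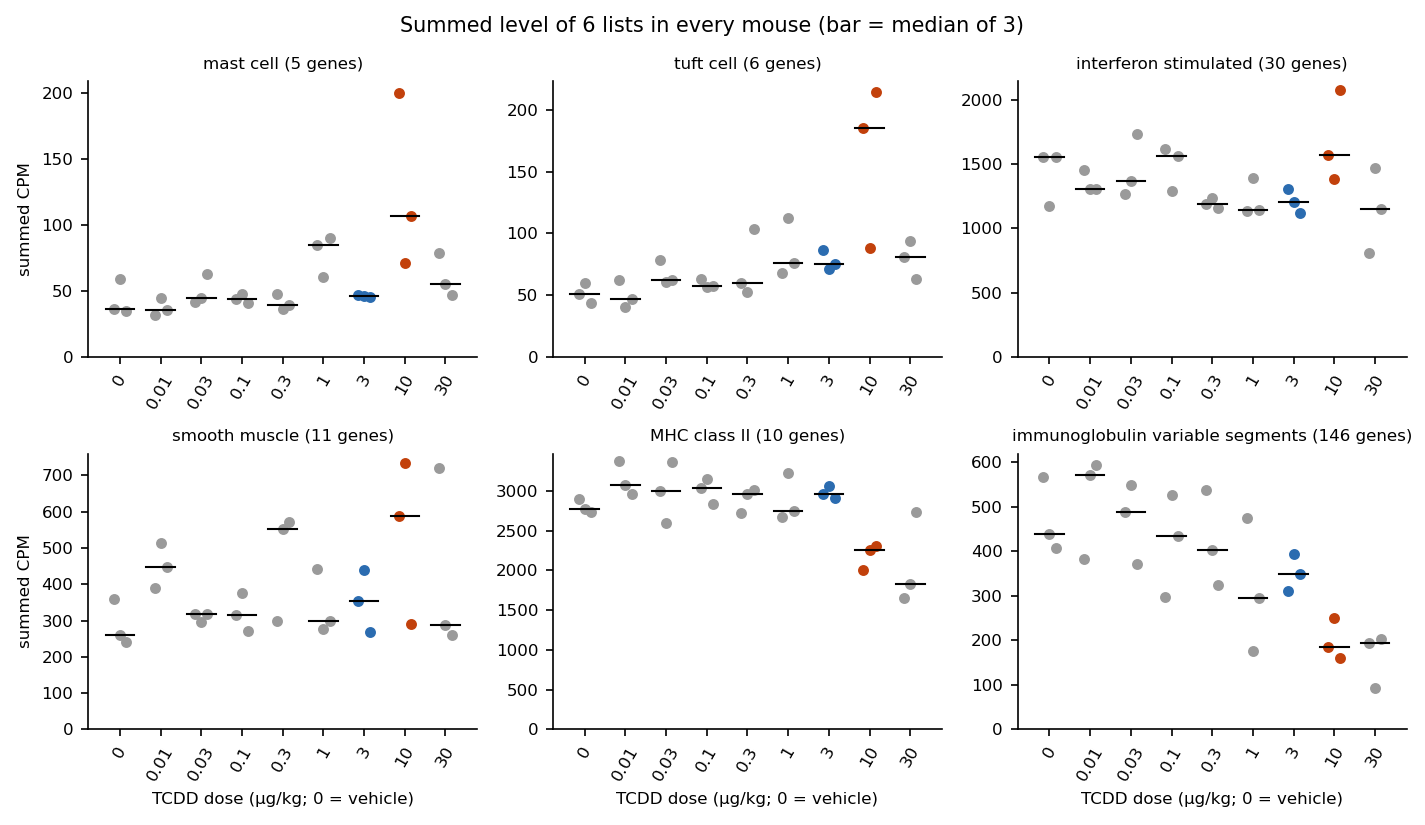
Summed CPM of 6 lists in each of 27 mice by TCDD dose, with the median of each group as a bar (blue, 3 µg/kg; orange, 10 µg/kg). Mast cell and tuft cell sums at 10 µg/kg spread from 71.4 to 200.5 and from 88.4 to 214, while those of MHC class II and immunoglobulin variable segments lie below the 3 µg/kg mice.

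Antigen presentation and antibody genes lay on the other side of 0. Of 10 MHC class II genes 9 were negative, 6 without overlap (6.24% of all genes lay lower so). Their median was -0.35, and none passed. *H2-Aa*, the alpha chain of I-A, measured 533, 559 and 544 CPM at 3 µg/kg and 313, 387 and 397 CPM at 10 µg/kg (log2 -0.58, SE 0.15, adjusted p = 0.28), and *Cd74*, the invariant chain, 1587, 1641 and 1509 and then 1112, 1218 and 1236 CPM (log2 -0.41, adjusted p = 0.44). The mice of each dose were close and the gap between doses clear of both. In the separate mice at 30 against 1 µg/kg all 10 were negative with a median of -0.52, and the transactivator of the class, *Ciita*, passed there (log2 -0.76, adjusted p = 0.00363).

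Immunoglobulin constant genes *Igha* and *Igkc* measured 894 to 995 and 336 to 391 CPM at 3 µg/kg and 490 to 708 and 152 to 242 CPM at 10 µg/kg (log2 -0.65 and -0.91, adjusted p = 0.73 and 0.48). Plasma cell markers were negative in 7 of 8 (median -0.46), and immunoglobulin variable segments in 106 of 146 (median -0.60), 27 of them without overlap, with reads that near-identical segments share left uncounted. Mice at 3 µg/kg already lay below vehicle mice, all of the first index use, at 1652 to 1775 against 1975 to 2660 CPM summed over plasma cell markers. For variable segments the sums were 310 to 395 against 406.5 to 567 CPM. At 1 µg/kg the sums were 975.5 to 2130 and 175 to 475 CPM. T lymphocyte markers were negative in 15 of 17 (median -0.35, 5 without overlap), from *Cd3e* at 14.8 to 18.5 and 10.2 to 13.3 CPM to *Cd8a*, which overlapped. Of all genes, 6.24% lay lower without overlap. No member of these 3 lists passed. Their medians in the 30 against 1 µg/kg mice were -0.84, -1.03 and -0.33. B lymphocyte markers had a median of -0.10 and macrophage markers -0.21, with no member apart between doses. Whether cell makeup has a part in the mast cell, tuft cell, interferon, antigen presentation or antibody differences was not tested.

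Smooth muscle genes varied widely within both doses. All 11 were positive with a median of 1.25, none passed and 0 were free of overlap. *Myh11*, the smooth muscle myosin, measured 50.7, 77.6 and 16.7 CPM at 3 µg/kg and 141, 189 and 24.7 CPM at 10 µg/kg. The sums were 268 to 439 and 289 to 735 CPM, and mouse 58, the lowest at its dose for the mast cell, tuft cell and interferon lists, was the highest for this one. The part of muscle in the other differences was not tested.

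**Figure D5:**
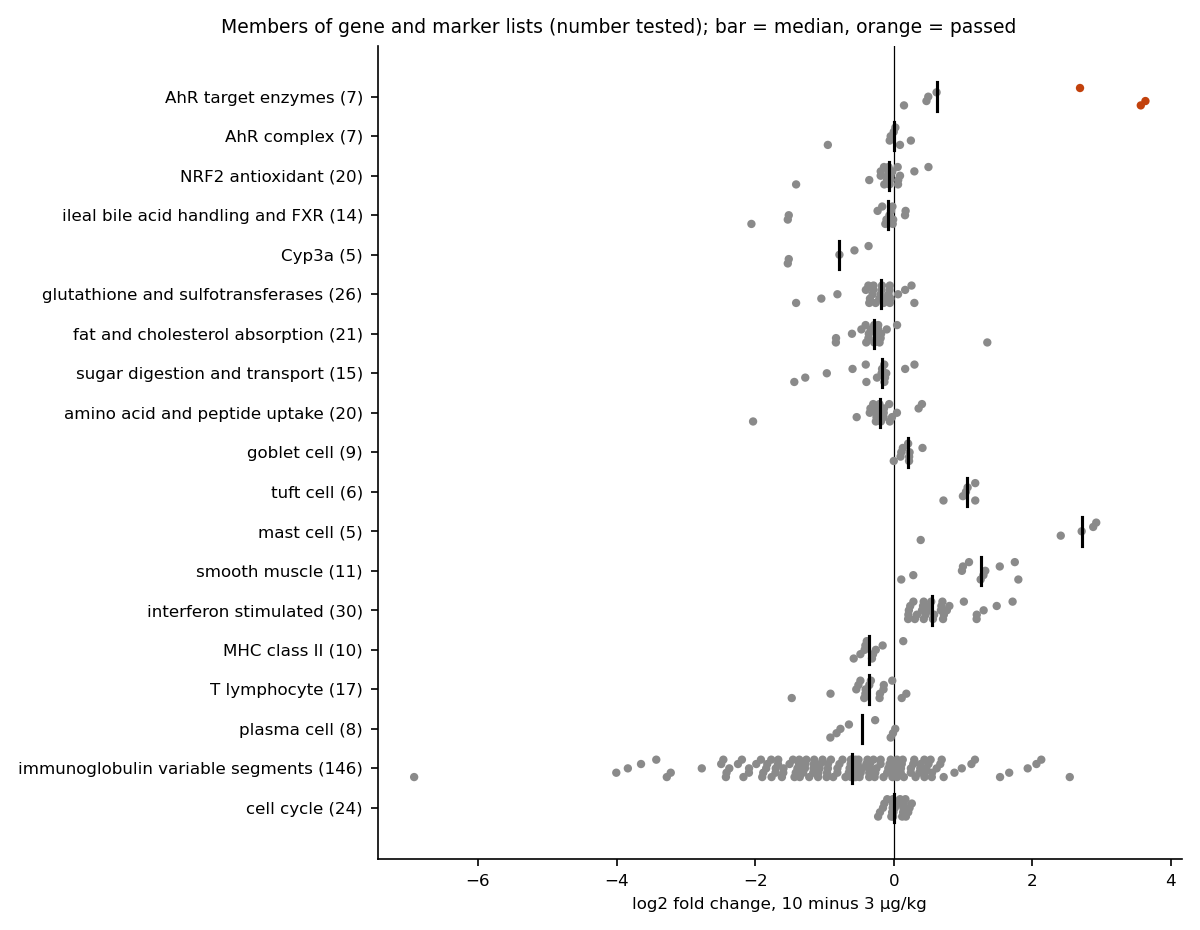
Log2 fold change (10 minus 3 µg/kg) of each tested member of 19 gene and marker lists, with list medians as bars. Only 3 AhR target genes passed (orange). Mast cell, tuft cell, smooth muscle and interferon medians lie at 2.71, 1.05, 1.25 and 0.55 and immunoglobulin variable segments at -0.60.

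Bile acid genes, the subject of the study's ileal measurements, held no gene past the test among 14. *Fgf15* (ENSMUSG00000031073, chr7:144896531-144900953, plus strand), the hormone by which ileum restrains hepatic bile acid synthesis, measured 124, 127 and 98.0 CPM at 3 µg/kg and 23.1, 33.9 and 26.8 CPM at 10 µg/kg. The doses did not overlap. The log2 fold change was -2.05 (SE 0.56), with an adjusted p of 0.35 in the fit of all 27 mice, in which single groups were as wide as 23.5 to 258 CPM (1 µg/kg). In a fit of the 6 mice alone *Fgf15* passed (adjusted p = 0.000384), as it did with no filter on low counts. At 30 against 1 µg/kg it passed (log2 -4.39, adjusted p = 0.000266). *Fgf15* stood at 47.9 to 69.5 CPM in vehicle mice, all of the first index use. All 3 mice at 3 µg/kg lay above that range, and all 3 at 10 µg/kg lay below it. Neither group passed when set against vehicle by edgeR (log2 1.02, adjusted p = 0.42, and log2 -1.04, adjusted p = 0.35). The value of -2.05 thus sets mice above the vehicle range against mice below it. A level below vehicle was not particular to 10 µg/kg. The mice at 0.03 µg/kg, at 28.4 to 39.5 CPM, also lay below that range and overlapped those at 10 µg/kg.

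The transporters showed no such gap. *Slc10a2*, which takes bile acids up from the lumen, measured 388 to 494 and 415 to 546 CPM (log2 0.17), and *Fabp6*, which binds them in the cytosol, 1477 to 1733 and 1310 to 1618 CPM (log2 -0.11). *Slc51a* and *Slc51b*, the basolateral exporter, measured 674 to 708 and 586 to 701 CPM (log2 -0.12) and 215 to 257 and 204 to 253 CPM (log2 -0.04). Each overlapped between doses and had an adjusted p from 0.95 to 0.99. The bile acid receptor *Nr1h4* measured 176 to 216 and 216 to 224 CPM. Its partner in feedback, *Nr0b2*, had 6 counts over the 6 mice and was not tested.

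Genes of the CYP3A monooxygenases of drugs and steroids lay lower at 10 than at 3 µg/kg. All 5 tested *Cyp3a* genes were negative, 4 of them without overlap (6.24% of all genes lay lower so). Their median was -0.78, and none passed. Summed, they held 680 to 777 CPM at 3 µg/kg and 371 to 637 CPM at 10 µg/kg. Vehicle mice, all of the first index use, held 495 to 567 CPM, inside the range at 10 µg/kg and below the mice at 3 µg/kg. *Cyp3a11*, the most studied of them, measured 95.4, 128 and 123 CPM at 3 µg/kg and 13.3, 30.1 and 77.0 CPM at 10 µg/kg (log2 -1.53, SE 0.61, adjusted p = 0.63). Mouse 59 lay closest to the lower dose. The family shares sequence, so that reads may be split between its members. In the 30 against 1 µg/kg mice 4 of the 5 were positive. Glutathione and sulfotransferase genes were negative in 22 of 26 (median -0.18, 8 without overlap), with *Gstm3* at 17.5, 25.0 and 20.9 and then 5.02, 6.73 and 12.2 CPM (log2 -1.41, adjusted p = 0.44). The separate mice leaned the other way, with 17 of 26 positive and a median of 0.14. Vehicle mice, which carry the first index use, summed to 916 to 1034 CPM over this list. The 3 µg/kg group lay above that range (1067 to 1178 CPM), whereas the 10 µg/kg group overlapped it (893 to 1075 CPM).

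Nutrient uptake genes were mostly slightly negative. In fat and cholesterol absorption 19 of 21 were negative, 8 without overlap (6.24% of all genes lay lower so), with a median of -0.28. *Abca1*, the cholesterol exporter, measured 75.9, 83.5 and 119 CPM and then 49.8, 51.5 and 55.0 CPM (log2 -0.84, adjusted p = 0.41), and *Fabp2*, the intestinal fatty acid binding protein, 1658, 2631 and 2242 and then 963, 1190 and 1514 CPM (log2 -0.83, adjusted p = 0.76). Each mouse at 10 µg/kg lay below the 3 others for both. *Fabp1* went the other way, at 4.46 to 6.86 and 12.1 to 17.8 CPM (log2 1.35, adjusted p = 0.56). Sugar digestion and transport was negative in 13 of 15 (median -0.18) and amino acid and peptide uptake in 17 of 20 (median -0.20), where *Slc6a14*, a broad amino acid transporter, measured 104, 85.0 and 40.3 and then 17.7, 19.6 and 18.7 CPM (log2 -2.03, adjusted p = 0.61), and passed in a fit of the 6 mice alone. No gene of these 3 lists passed, and their medians in the separate mice were positive, at 0.26, 1.01 and 0.18. In vehicle mice, all of the first index use, the 3 lists summed to 15990 to 17170, 10100 to 11260 and 19980 to 21820 CPM. Mice at 3 µg/kg lay above them, at 17361 to 20494, 15003 to 16615 and 26548 to 29777 CPM. Those at 10 µg/kg held 12474 to 17152, 12452 to 15746 and 20089 to 29624 CPM.

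Goblet cell genes were positive in 9 of 9 with a small median of 0.21, and 3 lay higher without overlap (6.68% of all genes did). Among the 3 was *Spdef*, a transcription factor of goblet cell maturation, at 25.4 to 29.7 and 33.5 to 37.9 CPM (log2 0.41, adjusted p = 0.40). Glucocorticoid-responsive genes split. *Fkbp5*, a cochaperone of the glucocorticoid receptor, and *Klf9* lay higher without overlap, at 77.3 to 112 and 118 to 183 CPM (log2 0.76) and at 44.2 to 51.9 and 60.4 to 70.6 CPM (log2 0.48), while *Tsc22d3* and *Sgk1* overlapped at log2 -0.21 and -0.46, and 0 of 12 passed. Clock genes overlapped throughout. In 2 lists of 11 and 10 genes, 0 had an unadjusted p under 0.05 and 0 were free of overlap. Paneth cell, enteroendocrine, tight junction and stem cell lists had medians of 0.13, 0.08, -0.04 and 0.05, and no member passed.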

How the data were processed

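RNA-Seq was done on ileal epithelium scrapings of 27 mice, 3 per group, and samples were grouped by the dose in the labels. The authors deposited raw read counts per Ensembl gene, 1 table per mouse. The submitters' processing notes name FastQC 0.11.3, Trimmomatic 0.33, TopHat2 2.1.0, SAMtools 1.2.0, HTSeq 0.6.1 and the build GRCm38. The counting options are not given in the sources used here, so a gene and an antisense partner cannot be told apart. Each table closes with 5 lines that name no gene, which were removed (shares of reads with no gene are in the report). GENCODE M21 gave symbols and positions for 45229 of 46078 IDs.

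All 27 mice in 9 groups were fitted with edgeR 4.0.16 (R 4.3.3; TMM scaling, filterByExpr, quasi-likelihood test, Benjamini-Hochberg adjustment over 16741 genes). To pass, a gene needed a change of 1.5-fold or more and an adjusted p no higher than 0.05. SE is the log2 fold change divided by the root of F. All pairs of mice within a dose differed by more than counting noise. Alternatives used limma 3.58.1, DESeq2 1.42.0, other scalings, other filters, the 6 mice alone, the 11 mice of the second index use, an index covariate and each mouse left out. Tables and figures used Python 3.11.15, pandas 2.3.3, numpy 2.4.6 and matplotlib 3.10.9. The authors' own model could not be recomputed and was replaced by this test.

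The members and lists were chosen with earlier results of these data known. Named genes were *Cyp1a1*, *Cyp1b1* and the bile acid genes always, then up to 15 called genes per direction by size, then, to reach 20, those with the smallest p, without overlap, at a mean of at least 1 CPM and with no predicted, Rik or immunoglobulin name. Other genes were taken from 55 lists as examples after their values were seen. On simulated counts with 50 changed genes per fold size, 16, 33, 42 and 46 were called at 1.5-, 2-, 4- and 8-fold, with 7 false calls. The 1.5-fold size equals the limit of a call, and 200 changed genes in all were simulated, against 7 genes called in the data. Some items are not reported here.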

Additional observations from a re-analysis of the deposited data

How the results depend on the processing

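Cyp1a1, Cyp1b1, Ahrr and Dgkh passed in all 15 alternatives run for single genes. The count of 7 genes (7 higher, 0 lower) was 32 with no filter on low counts (27 higher, 5 lower), 13 with the 6 mice alone (7 lower), 5 with the 11 mice of the second index use, and 21 with DESeq2 (20 higher, 1 lower), and 1 was lower with limma after quantile normalization. With 1 mouse left out it ranged from 4 (without mouse 50) to 18 (without mouse 58), with 4 to 17 higher and 0 to 1 lower. Called genes with the same direction at 30 against 1 µg/kg numbered 17 of 32 with no filter and 14 of 21 with DESeq2. With 1 mouse left out they numbered 4 to 10, where 4 to 18 were called. The share of all genes with the same direction is not given here. Among genes added with no filter were the pancreatic Cel, Ctrb1 and Pnlip, of which Ctrb1 and Pnlip had nearly all their counts in mouse 52. Slc6a7 was lost with other scalings. Slc51b log2 fold change ranged from -0.12 to 0.05 with 1 mouse left out, with values of 0.001652, 0.007508 and 0.05446 above 0. With an arm of 2 mice, spread is shared across groups. The simulated 1.5-fold changes, which equal the fold limit of a call, were called in 16 of 50 genes, so this rate does not measure depth and n alone. No paired analysis was possible because the mice are different animals and the labels number no replicates.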

Other observations

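Some abundant genes outside the lists had wide differences that did not pass, and they are given here as values chosen after they were seen. *Plb1*, a phospholipase of the brush border, measured 146.3, 522 and 434.5 CPM at 3 µg/kg and 25.1, 60.7 and 34.7 CPM at 10 µg/kg (log2 -3.19, edgeR adjusted p = 0.49). *Enpp7* and *Asah2*, which digest sphingomyelin and ceramide in the gut lumen, measured 78.2, 256 and 221 and then 27.2, 50.1 and 32.2 CPM (log2 -2.34), and 142, 189 and 188 and then 77.2, 106 and 60.2 CPM (log2 -1.09). The mice at 10 µg/kg lay below the others for each of these, and mouse 50 was the lowest at its dose.

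*Ada*, an enzyme of purine breakdown, measured 155, 248 and 191 CPM and then 63.0, 105 and 106 CPM (log2 -1.12), and *Slc28a2*, a nucleoside transporter, 161, 217 and 173 and then 66.9, 96.2 and 102 CPM (log2 -1.06). *Acta1*, skeletal muscle actin, measured 30.3, 27.7 and 16.0 CPM and then 69.7, 118 and 119 CPM (log2 2.06, edgeR adjusted p = 0.25). It lay higher in all 3 mice at 10 µg/kg, and it passed at 30 against 1 µg/kg (log2 3.34, adjusted p = 0.000693), beside smooth muscle markers that overlapped between doses. *Acta1* and *Plb1* passed in a fit of the 6 mice alone, and *Acta1* also with no filter on low counts.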
